A study of Mus musculus with 4 samples.

Results

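The 10 genes described here are the nuclear receptors Nr4a1, Nr4a2 and Nr4a3, the zinc finger factors Klf2, Klf4, Klf5, Klf6 and Klf10, and the early response genes Ier2 and Ier3. They were chosen by symbol, all 10 were found once, and they are 10 of the 31053 genes counted. Each was followed in mouse kidney cell types at 0, 1, 4 and 12 h after an injection of the phosphate-lowering hormone FGF23.

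The study made 4 single-cell RNA libraries of whole kidney, 1 per time point, each made from pooled kidneys of male and female C57BL/6 mice aged 10 weeks. The mice of the 1, 4 and 12 h libraries had received 10 µg of recombinant human FGF23 per mouse, once and into the peritoneal cavity, and the dose of the 0 h library is given as 0 µg. One deposited name of that 0 h library speaks of saline and 1 h, so the labels do not settle whether or when its mice were injected. All 4 libraries went through the same 30 min enzymatic digestion and a column step that removes dying cells.

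The Nr4a receptors have no known natural ligand that they need in order to act; their activity is set mainly by how much of them is made, and they bind DNA alone or, for Nr4a1 and Nr4a2, with a retinoid X receptor partner. Klf factors bind GC-rich DNA through 3 zinc fingers, and single members are known for separate settings, such as Klf2 and Klf4 in endothelium and Klf5 in the collecting duct. All of these genes can be switched on within minutes to hours by kinase signals, without new protein synthesis, and handling and digestion of a tissue is known to switch on several of them.

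Because each time point is a single library, there is no replicate spread and no test of any difference. Levels are UMIs (counted RNA molecules) per 1000000 UMIs of a cell class, written CPM, and differences are log2 ratios of CPM. Intervals, given in parentheses as their lower and upper bound, are 95% and cover counting error only. A gene was counted as higher or lower when it differed at least 2-fold with at least 20 UMIs over both libraries, and "higher" and "lower" without a value mean this below. The time points of 1, 4 and 12 h are all set against the same 0 h library, and time after injection, library and hour of the day cannot be told apart.

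The libraries held 12245 to 13813 barcodes and 139675666 to 158838728 UMIs, and after filters and removal of called doublets 8549 to 9891 cells remained, with median depths of 8543 to 10899 UMIs. Cell classes were rebuilt from markers: 5903 to 6899 cells per library were proximal tubule-like (PT-like), 480 to 649 distal convoluted and connecting tubule-like (DCT/CNT-like), 369 to 446 thick ascending limb-like (TAL-like), 57 to 119 principal cell-like (PC-like), 75 to 229 intercalated cell-like (IC-like) and 325 to 685 endothelial-like. Between 36 and 57 barcodes were shared by any pair of libraries. The 7 DCT/CNT markers summed to 27261 CPM in that class at 0 h, against 59.1 CPM in PT-like cells. PT-like cells did not mix evenly between libraries: of their 19 clusters 11 had at least 100 cells in every library, and these held 56.1%, 59.3%, 65.2% and 71.0% of PT-like cells at 0, 1, 4 and 12 h, so PT-like results are also given in those clusters alone. The median share of mitochondrial UMIs in PT-like cells was 22.2%, 22.2%, 16.1% and 21.0%. Over the libraries it was 30.1 to 35.7% in DCT/CNT-like, 34.1 to 37.6% in TAL-like and 27.5 to 34.4% in IC-like cells. PC-like and endothelial-like cells had lower medians than these classes, at 2.92 to 5.41% in endothelial-like cells. A stricter limit of 25% thus leaves out most DCT/CNT-like, TAL-like and IC-like cells. The part of the mitochondrial share in the results was not tested beyond that limit.

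At 0 h the 10 genes lay in different cells, as the map of levels by class shows. Nr4a1 was highest in neutrophil-like cells (205 CPM), then PC-like (131 CPM) and endothelial-like cells (85.5 CPM), with no overlap of the counting intervals between these neighbours. It stood at 22.9 CPM in DCT/CNT-like cells, with an interval that overlaps those of the B cell-like and T/NK-like classes beside it, and was lowest in PT-like cells at 0.291 CPM. Klf2, a factor of quiescent lymphocytes and of endothelium under flow, was at 3527 CPM in neutrophil-like, 2410 in B cell-like, 1994 in endothelial-like and 764 in T/NK-like cells, each apart from the next, and at 6.43 CPM or less in every tubule class. Ier3, a membrane-bound survival regulator, had another distribution: 373 CPM in DCT/CNT-like cells, 247 in neutrophil-like, 140 in PC-like, 107 in endothelial-like and 97.9 in TAL-like cells, of which the last 3 overlapped from each to the next, and 5.31 CPM in PT-like cells. DCT/CNT-like cells held 55.3% of all Ier3 UMIs at 0 h. Klf4 was at 268 CPM in endothelial-like cells. An unnamed cluster of 53 to 121 cells per library, led by the endothelial gene Cldn5, held 43.8% of Klf4 UMIs at 0 h and had Klf4 among its 10 leading genes, so its level there is a description of the cluster. Ier3 was likewise among the 10 leading genes of the DCT/CNT-like cluster led by Slc12a3, although none of the 10 genes was used to form clusters.

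**Figure D1:**
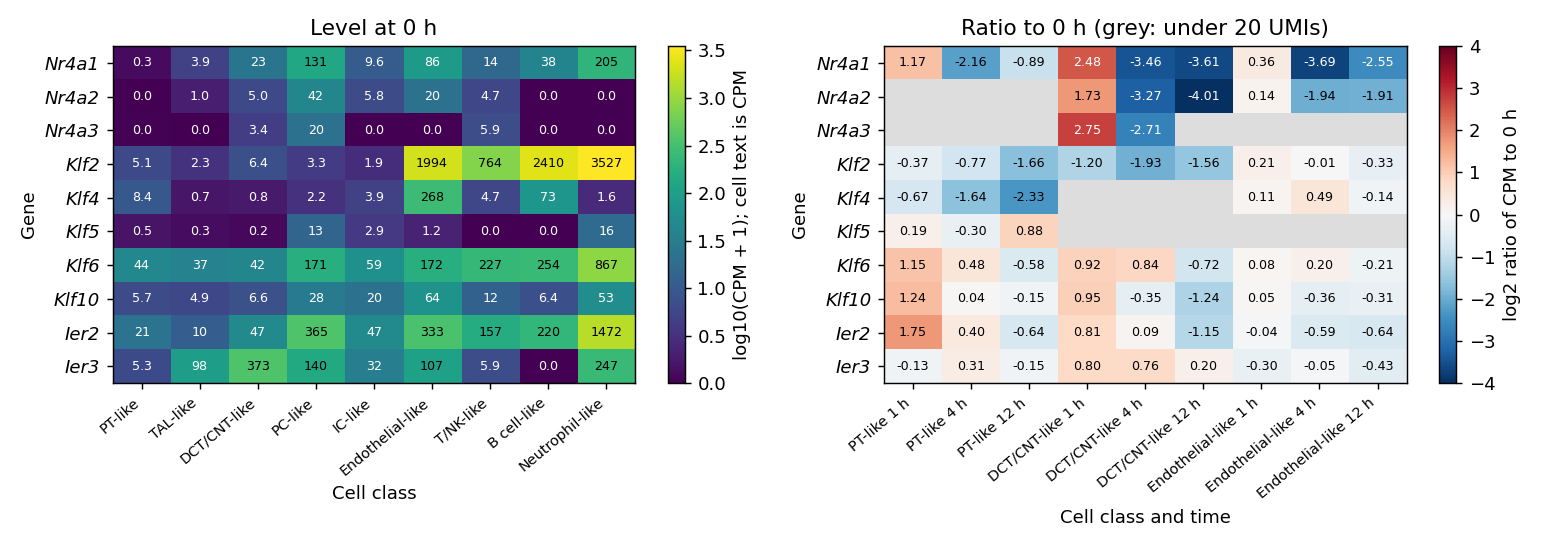
Levels and changes of the 10 genes by cell class. The left map gives CPM at 0 h in 9 classes, and the right map log2 ratios of 1, 4 and 12 h against 0 h in PT-like, DCT/CNT-like and endothelial-like cells, with grey where fewer than 20 UMIs were counted or a library was at 0; the 3 Nr4a genes are above 0 at 1 h and below 0 at 4 h in DCT/CNT-like cells.

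Nr4a1 (GRCm38, chr15:101254269-101274795, plus strand) swung widely in DCT/CNT-like cells, the segment where FGF23 receptors and Klotho are known to be abundant. It had 114, 730, 16 and 12 UMIs at 0, 1, 4 and 12 h, or 22.9, 128, 2.08 and 1.88 CPM. The 1 h library stood far above the others and the 4 and 12 h libraries far below 0 h, and no interval of the first 3 times overlapped another. Set against 0 h, these are log2 ratios of 2.48 (2.19, 2.78), -3.46 (-4.31, -2.70) and -3.61 (-4.60, -2.75). At 1 h the intervals of its level in neutrophil-like, PC-like, DCT/CNT-like and endothelial-like cells, the 4 highest classes, overlapped from each to the next. Nr4a2 (chr2:57106830-57124003, minus strand) had 25, 95, 4 and 2 UMIs in the same cells, or 5.03, 16.6, 0.521 and 0.313 CPM, with ratios of 1.73, -3.27 and -4.01. Nr4a3 (chr4:48045153-48086447, plus strand) had 17, 131, 4 and 0 UMIs, or 3.42, 22.9 and 0.521 CPM and none at 12 h, where 3 UMIs would have been 0.469 CPM. Its ratio was 2.75 (2.01, 3.57) at 1 h and -2.71 (-4.74, -1.10) at 4 h. All 3 receptors thus shared one order of the libraries, 1 h highest, 0 h next and the later libraries lowest. At 1 h DCT/CNT-like cells held 72.0% of all Nr4a3 UMIs of the library, 48.4% of Nr4a1 and 39.6% of Nr4a2, although they were 5.43 to 6.56% of the cells in each library.

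The promoters of the 3 Nr4a genes are printed because these genes moved together in DCT/CNT-like cells, with that of Klf6, which followed another course, for comparison. Each is the sequence before the RefSeq start (GRCm38.p6), cut where an annotated exon begins, on the strand of the gene: Nr4a1 at chr15:101266596-101266845, Nr4a2 at chr2:57124004-57124253, Nr4a3 at chr4:48045055-48045152 and Klf6 at chr13:5861239-5861481. The RefSeq start of Nr4a1 lies inside the longer gene model of the annotation. Capitals mark TGACG, the core of the cAMP response element, or its complement CGTCA.
Nr4a1: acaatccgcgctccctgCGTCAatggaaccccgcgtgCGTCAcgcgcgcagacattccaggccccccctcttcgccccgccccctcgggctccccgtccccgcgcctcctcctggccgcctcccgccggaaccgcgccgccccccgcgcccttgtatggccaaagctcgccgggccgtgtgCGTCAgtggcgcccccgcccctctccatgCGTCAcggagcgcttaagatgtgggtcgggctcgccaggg
Nr4a2: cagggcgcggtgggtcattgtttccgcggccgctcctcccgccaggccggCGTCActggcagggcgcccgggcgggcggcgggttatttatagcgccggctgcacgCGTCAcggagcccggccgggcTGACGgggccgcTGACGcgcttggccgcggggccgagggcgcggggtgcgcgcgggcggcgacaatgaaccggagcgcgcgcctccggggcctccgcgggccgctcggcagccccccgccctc
Nr4a3: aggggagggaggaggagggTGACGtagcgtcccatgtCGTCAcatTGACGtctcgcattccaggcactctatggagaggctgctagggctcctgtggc
Klf6: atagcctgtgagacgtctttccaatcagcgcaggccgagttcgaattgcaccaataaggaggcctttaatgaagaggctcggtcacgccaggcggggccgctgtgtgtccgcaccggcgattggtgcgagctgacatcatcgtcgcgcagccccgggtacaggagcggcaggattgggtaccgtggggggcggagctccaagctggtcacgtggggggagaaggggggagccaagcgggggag

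In the full window of 250 bases before the start, searched on both strands, Nr4a1, Nr4a2 and Nr4a3 each had 4 copies of TGACG, and 3 of those of Nr4a3 lie in the stretch shown. Klf2 and Klf4 had 1 copy each and Klf6 and Ier3 had none; Klf5, Klf10 and Ier2 were not in the promoter table, so 7 of the 10 genes were searched. Among 32851 promoters of the same length 17.8% held at least 1 copy of TGACG and 45, or 0.137%, held 4 or more. The full palindrome TGACGTCA, which contains TGACG, was in 0 of the 7 and in 1.55% of all promoters, and the serum response CArG box was in 0 of the 7 and in 1.47%. The GC box GGGCGG, a Klf and Sp factor motif, was in 7 of 7 and in 32.7% of all. The letters are a description of these windows and show neither binding nor use.

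The Nr4a change at 1 h was not seen alike in other classes. In PC-like cells of the collecting duct Nr4a1 was already at 131 CPM at 0 h, with 148, 12.1 and 6.16 CPM after it (119, 100, 24 and 6 UMIs), so the ratio was 0.17 (-0.22, 0.57) at 1 h but -3.45 at 4 h and -4.41 at 12 h. Nr4a2 there was at 41.9, 56.3, 3.52 and 1.03 CPM (38, 38, 7 and 1 UMIs), and Nr4a3 had 18, 13, 1 and 0 UMIs. In endothelial-like cells Nr4a1 had 69, 95, 9 and 25 UMIs, or 85.5, 109, 6.63 and 14.6 CPM, with ratios of 0.36 (-0.11, 0.83), -3.69 and -2.55. A lower Nr4a1 level in the 4 and 12 h libraries than at 0 h was thus common to PC-like, endothelial-like and DCT/CNT-like cells. The 3 classes differed in the step from 0 to 1 h. IC-like cells had 10, 30, 4 and 3 Nr4a1 UMIs, and the 1 h ratio of 1.01 had an interval of -0.06 to 2.20. TAL-like cells had 12, 10, 3 and 1. PT-like cells, although by far the most numerous, gave 24, 56, 6 and 12 Nr4a1 UMIs, or 0.291, 0.654, 0.0649 and 0.157 CPM, with a 1 h ratio of 1.17 (0.46, 1.92); Nr4a2 and Nr4a3 had at most 4 UMIs there in any library. Free RNA was not removed, and its part in so low a Nr4a1 level was not tested. Immune classes differed again. Neutrophil-like cells held 205, 175, 105 and 180 CPM of Nr4a1, all within 2-fold of 0 h, from 127, 101, 14 and 17 UMIs, while B cell-like cells had 18, 18, 2 and 9 UMIs, with ratios of -2.22 and -1.80 for the later libraries.

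DCT/CNT-like cells were themselves 2 groups. The cluster led by Slc12a3, the thiazide-sensitive sodium chloride transporter of the distal convoluted tubule, had 325, 285, 347 and 266 cells, and the other clusters 166, 195, 302 and 334. In the Slc12a3-led cluster Nr4a1 was at 29.0, 197, 2.39 and 1.56 CPM, a 1 h ratio of 2.77 (2.46, 3.09), and in the others at 10.9, 25.2, 1.72 and 2.20 CPM, a ratio of 1.21 (0.43, 2.06). The intervals of both 1 h ratios do not overlap, within 1 pair of libraries. Nr4a3 had ratios of 2.97 and 2.23 in the same order. Cells called male from their sex-linked RNA numbered 125, 157, 233 and 205 over the libraries in order of time, and cells called female 247, 219, 220 and 187. The balance of the sexes thus moved between libraries, and its part in the DCT/CNT-like time courses was not tested. Male-called and female-called cells had 1 h ratios for Nr4a1 of 1.78 and 3.15. With a limit of 25% instead of 50% mitochondrial UMIs only 38 and 121 Nr4a1 UMIs were left at 0 and 1 h, and the ratio was 1.79.

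Shares of cells followed the levels. After each cell was thinned to 2000 UMIs, Nr4a1 was seen in 4.66% (2.94, 6.97%), 21.2% (17.5, 25.2%), 0.162% and 0.543% of DCT/CNT-like cells over the 4 libraries in order of time. Before thinning the shares were 15.9%, 46.9%, 2.16% and 2.0%. Thinning left out 19, 17, 30 and 48 shallower cells. By these shares more cells held the RNA at 1 h than at 0 h. The most UMIs in any single DCT/CNT-like cell before thinning were 7 at 0 h and 22 at 1 h. Each of these values is from 1 cell and depends on its depth. In PT-like cells, which had a similar median depth (12971 UMIs at 1 h against 11470.5 in DCT/CNT-like cells), the thinned share was 0.102% at 1 h. A share this low may be background, which was not tested. PC-like cells had thinned shares of 13.4%, 28.1%, 3.36% and 2.44%.

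Klf6, a factor known from stellate cells and injured kidney, and Klf10, a factor first known as an early target of TGF-beta, peaked at 1 h in PT-like cells. Klf6 (chr13:5861482-5870394, plus strand) was at 44.2, 97.8, 61.7 and 29.7 CPM there, from 2265 to 8373 UMIs, with ratios of 1.15 (1.09, 1.2), 0.48 and -0.58. The 1 h library was highest, 4 h between it and 0 h, and 12 h lowest, 2.08-fold below 4 h. Klf10 (chr15:38291463-38300706, minus strand) was at 5.67, 13.4, 5.81 and 5.12 CPM, with a 1 h ratio of 1.24 (1.09, 1.40) and later ratios of 0.04 and -0.15, so that only the 1 h library stood apart. PT-like cells held 70.9% of Klf6 and 71.7% of Klf10 UMIs of the 1 h library, against 57.0% and 59.2% at 0 h.

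In TAL-like cells Klf6 was at 36.8, 76.4, 43.1 and 25 CPM, a 1 h ratio of 1.05 (0.73, 1.38), which is close in size to that in PT-like cells. DCT/CNT-like cells had it at 41.8, 78.9, 74.9 and 25.3 CPM. There the 4 h level was about that of 1 h (ratios 0.92 and 0.84, both under 2-fold), and it was lower at 12 h than at 4 h (-1.56). The clusters parted here as well: Klf6 ratios at 1 and 4 h were 1.34 and 1.44 in the Slc12a3-led cluster and -0.15 and -0.62 in the others. Male-called DCT/CNT-like cells had 60.7 and 55.8 CPM of Klf6 at 0 and 1 h (87 and 118 UMIs). Female-called ones had 32.1 and 103 CPM (87 and 286 UMIs), so the higher 1 h level was seen in female-called cells and not in male-called ones. Klf10 in DCT/CNT-like cells had 33, 73, 40 and 18 UMIs, with ratios of 0.95 (0.33, 1.58), -0.35 and -1.24. In the Slc12a3-led cluster its 1 h ratio was 1.67. In PC-like, IC-like and endothelial-like cells Klf6 and Klf10 were within 2-fold of 0 h at 1 h. Klf10 was lower at 12 h in PC-like cells (5 against 25 UMIs, ratio -2.43) and at 4 and 12 h in IC-like cells (26 and 8 against 21 UMIs, in 229 and 131 against 75 cells; ratios -1.09 and -2.12).

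Ier2 (chr8:84661331-84662852, minus strand), a small nuclear protein made in the first minutes after a growth stimulus, gave the largest 1 h ratio of the 8 genes measured in PT-like cells. It was at 21.1, 70.8, 27.8 and 13.6 CPM, with ratios of 1.75 (1.67, 1.82), 0.40 and -0.64. In TAL-like cells it was at 10.4, 23.8, 16.2 and 11.6 CPM, a 1 h ratio of 1.19 (0.59, 1.83), and in DCT/CNT-like cells at 47.5, 83.1, 50.7 and 21.4 CPM, with ratios of 0.81, 0.09 and -1.15. These 3 tubule classes had their highest level at 1 h, whereas IC-like cells had 47.2, 42.6, 39.97 and 32.5 CPM. PC-like cells held much more of it throughout, at 365, 455, 311 and 220 CPM, and endothelial-like cells 333, 324, 221 and 214 CPM, all within 2-fold of 0 h.

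Ier3 (chr17:35821684-35822923, plus strand) behaved unlike Ier2. Its levels in DCT/CNT-like cells were 373, 649, 634 and 430 CPM, from 1856 to 4868 UMIs, with ratios of 0.80 (0.72, 0.88), 0.76 and 0.20, so the 1 and 4 h libraries were both above 0 h without reaching 2-fold. Its time course differed between clusters: 455, 891, 648 and 462 CPM in the Slc12a3-led cluster, highest at 1 h, and 210, 291, 617 and 399 CPM in the others, highest at 4 h, where the ratio was 1.56 (1.39, 1.72). Cluster shares also moved between libraries, since the Slc12a3-led cluster fell from 325 of 491 cells at 0 h to 266 of 600 at 12 h. PC-like cells had 140, 295, 205 and 188 CPM of Ier3, a 1 h ratio of 1.07 (0.74, 1.41). TAL-like cells had 97.9, 110.0, 170 and 91.6 CPM. PT-like cells stayed at 5.31, 4.83, 6.59 and 4.79 CPM, and DCT/CNT-like cells held 67.7% of all Ier3 UMIs at 1 h.

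**Figure D2:**
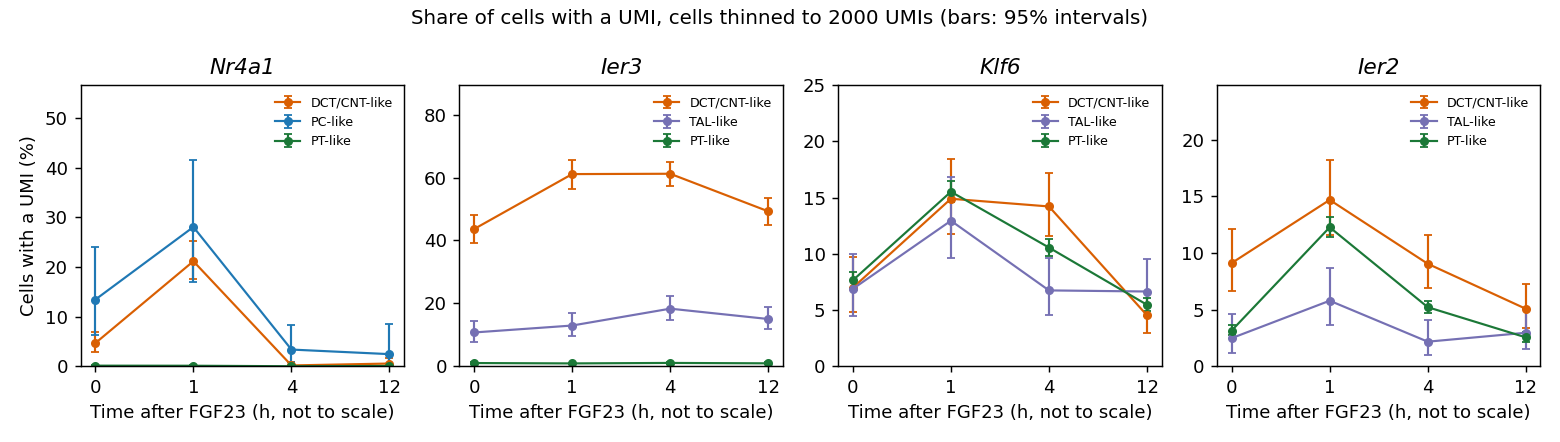
Percent of cells with at least 1 UMI after thinning every cell to 2000 UMIs, for Nr4a1 in DCT/CNT-like, PC-like and PT-like cells and for Ier3, Klf6 and Ier2 in DCT/CNT-like, TAL-like and PT-like cells, with exact binomial intervals. Nr4a1 is seen in 21.2% of DCT/CNT-like cells at 1 h and in 0.102% of PT-like cells, and Ier3 in 43.6% to 61.2% of DCT/CNT-like cells.

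The thinned shares tell how widely these genes were seen. Klf6 was in 7.65%, 15.5%, 10.6% and 5.47% of PT-like cells and Ier2 in 3.15%, 12.3%, 5.21% and 2.55%, both highest at 1 h. Without thinning the 1 h shares of PT-like cells were 47.4% for Klf6 and 45.8% for Ier2. Ier3 was in 43.6%, 61.1%, 61.2% and 49.3% of DCT/CNT-like cells, in 10.7%, 12.9%, 18.3% and 15.0% of TAL-like cells and in 1.02%, 0.899%, 1.05% and 0.926% of PT-like cells, the last being the class with least of it among the 3.

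Klf4 and Klf2 took the other direction in PT-like cells. Klf4 (chr4:55527143-55532466, minus strand), a factor of differentiated epithelium and endothelium, had 697, 456, 250 and 128 UMIs, or 8.44, 5.32, 2.70 and 1.68 CPM, each library below the one before it in time. The ratios were -0.67 (-0.84, -0.49), -1.64 (-1.86, -1.43) and -2.33 (-2.62, -2.06). Klf2 (chr8:72319033-72321656, plus strand) had 421, 337, 276 and 123 UMIs, or 5.10, 3.93, 2.99 and 1.61 CPM, with ratios of -0.37, -0.77 and -1.66 (-1.96, -1.37), in the same order. Their thinned shares of PT-like cells were at most 1.45% and 1.07%, against 29.5% and 88.0% of endothelial-like cells at 0 h, at median depths of 12397 and 2230 UMIs. Markers of the cells rich in these genes were summed as well. Endothelial markers came to 3.27, 3.19, 3.01 and 5.60 CPM in PT-like cells, and neutrophil markers came to 12.6, 7.82, 2.27 and 1.35 CPM. The second sum falls along with Klf2 and Klf4. In neutrophil-like cells at 0 h Klf4 had 1 UMI and Klf2 2181. Only 1, 0, 4 and 0 PT-like cells had at least 5 UMIs of neutrophil markers. Leaving them out removed no Klf2 UMI, so the Klf2 ratios of -0.37, -0.77 and -1.66 could not change and the step decides nothing. Neutrophil-like cells themselves numbered 350, 324, 76 and 58 over the libraries in order of time. For the remaining cells the part of neutrophil RNA in the fall of Klf2 was not tested.

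Klf5 (chr14:99298691-99315036, plus strand) was low in PT-like cells, with 44, 52, 40 and 75 UMIs and a 12 h ratio of 0.88 (0.33, 1.45). Among tubule classes PC-like cells had most of it at 0, 1 and 4 h, with 13.2, 22.2, 18.1 and 5.14 CPM from 12, 15, 36 and 5 UMIs. The 12 h library was lower there than the 4 h library (-1.82, -3.52 to -0.46). In DCT/CNT-like cells Klf5 had at most 7 UMIs and Klf4 at most 12, too few for a ratio.

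Klf2 in DCT/CNT-like cells had 32, 16, 13 and 14 UMIs, with ratios of -1.2, -1.93 and -1.56. Much of the 0 h count came from few cells. Neutrophil markers summed to 112 CPM in DCT/CNT-like cells at 0 h and to 7.35, 1.95 and 1.56 CPM after it. Leaving out the 2 cells of the 0 h library with at least 5 UMIs of these markers reduced Klf2 there to 17 UMIs (3.44 CPM) and the ratios to -0.30, -1.02 and -0.65, so that only the 4 h ratio was past 2-fold. The same step left the 1 h ratio of Nr4a1 at 2.47. In PC-like cells Klf2 had 3, 3, 19 and 1 UMIs, and the library with 19 also had the highest neutrophil marker sum (11, 13.3, 78.9 and 1.03 CPM); the part of such RNA in that value was not tested.

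Endothelial-like cells, rich in both Klf2 and Klf4, had 1994, 2304, 1981 and 1587 CPM of Klf2, with ratios of 0.21, -0.01 and -0.33, and 268, 288, 375 and 243 CPM of Klf4, with ratios of 0.11, 0.49 and -0.14. Klf2 was within 2-fold of 0 h in neutrophil-like (3527, 4352, 4009 and 3503 CPM), B cell-like (2410, 2461, 1905 and 1735 CPM) and T/NK-like cells (764, 947, 664 and 758 CPM). Of known targets of both factors, the nitric oxide synthase Nos3 and thrombomodulin (Thbd) were within 2-fold in endothelial-like cells, at 59.5, 51.9, 73.7 and 67.4 CPM and at 319, 353, 356 and 302 CPM. The sphingosine phosphate receptor S1pr1 was at 325, 335, 217 and 155 CPM and lower at 12 h (-1.06, -1.32 to -0.81). Klf4 was lower in B cell-like cells, with 34, 24, 8 and 15 UMIs and ratios of -1.13 at 4 h and -1.98 at 12 h, and in the unnamed Cldn5-led cluster, with 1221, 1375, 903 and 516 CPM and a 12 h ratio of -1.24. In that cluster Ier2 went from 992 CPM at 0 h to 716, 398 and 226 CPM.

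The PT-like changes were followed by tubule segment, in shared clusters and in both sexes. Ier2 at 1 h went from 14.3 to 80.8 CPM in the early segments (S1/S2-like), a ratio of 2.49 (2.36, 2.63), and from 26.8 to 63.0 CPM in the last segment (S3-like), a ratio of 1.23 (1.13, 1.33), and at 4 h the ratios were 1.02 and 0.01. Klf10 at 1 h had ratios of 1.61 and 0.78. Klf6 was at 77.4 CPM in S1/S2-like and 20.01 CPM in S3-like cells at 0 h, but its 1 h ratios of 0.97 and 1.18 were close. Klf4 was lower at 12 h in both (-2.46 and -2.02), and so was Klf2 (-1.76 and -1.77). Klf5 parted between segments on few UMIs: it had 19, 32, 37 and 62 in S1/S2-like cells, past 2-fold at 12 h (1.42), and 24, 19, 3 and 10 in S3-like cells, with ratios of -2.79 at 4 h and -0.62 at 12 h.

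The 11 shared clusters gave larger 1 h ratios for Ier2 (2.57, from 11.5 to 68.3 CPM) and Klf10 (1.57), a like one for Klf6 (1.08) and a smaller one for Nr4a1 (0.87). Ier2 in them had ratios of 1.25 (1.10, 1.41) at 4 h and 0.19 (0.009, 0.37) at 12 h. It was thus past 2-fold at 4 h and not below 0 h at 12 h, unlike in all PT-like cells. For Klf4 the shared clusters gave -0.17 at 1 h, -0.91 at 4 h and -1.31 at 12 h, from 2.07, 1.84, 1.10 and 0.834 CPM. For Klf2 they gave -1.31 at 12 h. Within these clusters the ratio of Klf4 was thus past 2-fold at 12 h and not at 4 h. They held only 78 of the 697 Klf4 UMIs of PT-like cells at 0 h. Most of that count lay in clusters not shared by every library, and the part of this in the larger fall over all PT-like cells was not tested. Klf5 reached 1.06 (0.22, 1.96) at 12 h in the shared clusters.

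Klf4 levels differed between the sexes. They were 11.6, 6.77, 3.12 and 1.93 CPM in male-called and 3.88, 3.95, 3.17 and 2.27 CPM in female-called PT-like cells, so the male-called level was the higher one at 0 and 1 h but not at 4 and 12 h, and the 12 h ratios were -2.59 and -0.77. Within S1/S2-like cells alone the 12 h ratios were -3.20 and -0.93, and Klf2 had -2.30 and -1.29. S3-like cells could not be compared in this way, as only 50 to 74 of them per library were called female and 1051 to 1927 male. Female-called PT-like cells were mostly S1/S2-like (1234 of 1309 at 0 h), so the 2 segment labels also differ in sex. Whether the S3 markers find female cells of that segment was not tested. In male-called cells alone Ier2 at 0 and 1 h was at 14.3 and 68.9 CPM in S1/S2-like cells and 28.2 and 64.8 CPM in S3-like cells. Ier2 at 1 h had ratios of 1.40 in male-called and 2.34 in female-called PT-like cells, and of 2.27 and 2.49 within S1/S2-like cells, where the sexes were close.

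**Figure D3:**
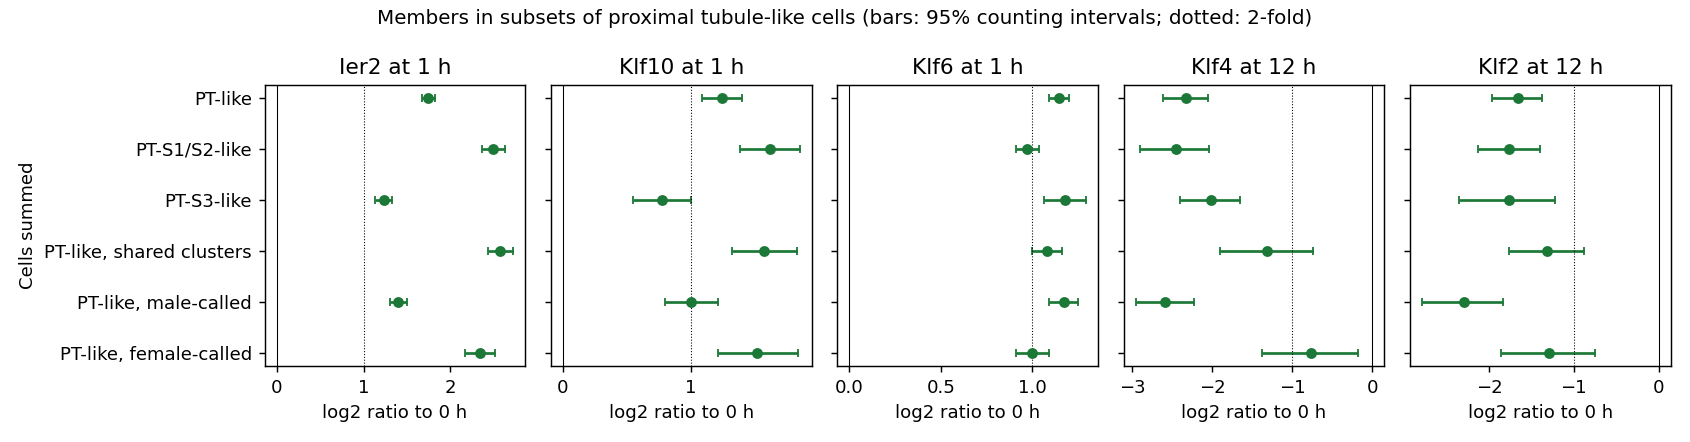
Log2 ratios against 0 h of Ier2, Klf10 and Klf6 at 1 h and of Klf4 and Klf2 at 12 h in all PT-like cells, S1/S2-like and S3-like cells, the clusters shared by every library, and male-called and female-called cells, with 95% counting intervals. Ier2 ranges from 1.23 to 2.57 and Klf4 from -2.59 to -0.77 over these subsets.

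The counts of genes past 2-fold can be set beside those of all genes that had at least 20 UMIs. In PT-like cells 4 of the 8 measured genes were higher at 1 h (Nr4a1, Klf6, Klf10 and Ier2) and 0 lower, where 0.901% of all genes were higher and 1.6% lower. Without Nr4a1, whose low level in PT-like cells may be background, 3 were higher. At 4 h 0 were higher and 2 lower, beside 3.03% and 2.82% of all genes. These 2 were Klf4 and, at a level that may be background (6 against 24 UMIs), Nr4a1. At 12 h 0 were higher and 2 lower (Klf2 and Klf4), beside 2.71% and 2.58% of all genes. The medians over the measured genes were 0.67, -0.13 and -0.61, beside 0.01, 0.04 and 0.02 over all genes. In DCT/CNT-like cells the 3 Nr4a genes were higher and Klf2 lower at 1 h among 8 measured (all genes 1.34% higher and 1.58% lower). At 4 h 4 of 8 were lower and 0 higher (the Nr4a genes and Klf2), beside 4.23% and 3.4% of all genes. At 12 h 5 of 7 were lower and 0 higher (Nr4a1, Nr4a2, Klf2, Klf10 and Ier2), beside 2.38% and 2.92% of all genes. Without the 2 cells of the 0 h library rich in neutrophil markers Klf2 was not lower at 1 h (-0.30) or 12 h (-0.65). Medians there were 0.93, -1.14 and -1.24, against -0.03, -0.05 and -0.02 over all genes.

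In TAL-like cells 2 of 5 were higher at 1 h (Klf6 and Ier2) and 0 lower, beside 1.25% and 0.582% of all genes. At 4 h 0 of 4 were higher and 1 lower (Klf10, 8 against 15 UMIs; all genes 1.39% and 1.38%), and at 12 h 0 of 4 in either direction (all genes 1.17% and 1.11%). PC-like cells had 1 of 8 higher (Ier3) and 0 lower at 1 h, beside 2.24% and 2.28% of all genes. They had 1 higher (Klf2) and 2 lower (Nr4a1 and Nr4a2) of 8 at 4 h (all genes 4.2% and 1.89%), and 0 higher and 3 lower (with Klf10) of 6 at 12 h (all genes 2.42% and 2.9%). In endothelial-like cells 0 of 8 passed 2-fold at 1 h (all genes 2.25% higher and 1.45% lower), and 0 were higher and 2 lower, Nr4a1 and Nr4a2, at both 4 h (2.47% and 2.35%) and 12 h (2.86% and 1.79%).

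Other early genes moved beside them. Of a list of 20 such genes 16 were measured in PT-like cells at 1 h, and 4 were higher and 0 lower, with a median of 0.53. Egr1, a zinc finger factor, had a ratio of 3.29, and Egr2 20 against 1 UMIs. The phosphatase gene Dusp1, which switches off MAP kinases, was at -0.67. At 4 h 1 of 14 was higher (Ier5, 1.57) and 5 lower, among them Dusp1 (-2.41) and Atf3 (-1.94), and at 12 h 0 were higher and 8 lower, among them Atf3 (-4.61) and Fos (-2.64). DCT/CNT-like cells had 5 of 16 higher and 1 lower at 1 h, with a median of 0.54. Egr1 had a ratio of 3.47. Arc, a gene best known from neurons, had 52 UMIs at 1 h and 55 at 4 h against 0 at 0 h, at least 15.1-fold and 11.9-fold higher than 3 UMIs in the 0 h library would be. At 4 h 3 of 14 were higher and 5 lower and at 12 h 1 and 10 of 12, with Fos at -2.88 and Fosb at -2.46.

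Of 12 other Klf genes 9 were measured in PT-like cells and 0 passed 2-fold in either direction at 1, 4 or 12 h, with medians of 0.06, -0.39 and -0.18. Klf9, a glucocorticoid target, was at 174, 221, 132 and 153 CPM, and Klf15, a factor of amino acid and lipid metabolism, at 53.5, 51.0, 41.3 and 42.5 CPM. Of these 8 were measured in DCT/CNT-like cells and only Klf11 passed, lower at 4 h (-1.06) and 12 h (-1.12). Of the 3 Rxr partner genes, Rxrg was higher at 12 h in PT-like cells (89 against 47 UMIs, ratio 1.03) and no other call was made in PT-like cells. Heat shock genes, which mark stress of cells, had 0 of 12 past 2-fold in PT-like cells at each time, with medians of 0.09, 0.38 and -0.08, and in DCT/CNT-like cells only Hspb1, at 12 h (-1.41). Hspa1a was at 16.7, 29.4, 19.0 and 9.82 CPM in PT-like cells. Clock genes did move: of 14 in PT-like cells 0 passed 2-fold at 1 h, 3 were higher and 5 lower at 4 h, and 1 was higher and 2 lower at 12 h. Cry1 had 4 h ratios of 2.77 in PT-like and 2.29 in DCT/CNT-like cells, and the clock output gene Dbp was at 23.9, 15.0, 4.83 and 57.5 CPM in PT-like cells. Per1, both a clock and an early gene, had 1 h ratios of 0.93 in PT-like and 1.33 in DCT/CNT-like cells. The part of the hour of the day in the changes of the 10 genes was not tested.

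Genes with the most similar pattern were ranked by Pearson's r over 36 values, the 9 named classes in 4 libraries. Each value is log2(CPM + 1) less its mean over the 4 libraries of that class, so r compares changes and not levels, and the values share libraries and class depths. Among 13327 genes, those nearest to Nr4a1 were Atf3 (0.82), Pde10a (0.82) and Per1 (0.81), to Klf6 Junb (0.85), Egr1 (0.84) and Jund (0.79), and to Ier2 Egr1 (0.89), Btg2 (0.81) and Junb (0.80). Nr4a2 lay nearest to Fam46a (0.74) and Nr4a3 to Neat1 (0.77), a nuclear noncoding RNA. Klf2 lay nearest to S100a8 (0.72) and S100a9 (0.67), which are markers of neutrophils, and Klf4 to Ccar1 (0.72). Klf5 (Zfp128, 0.69), Klf10 (Psap, 0.75) and Ier3 (Dab2ip, 0.74) had no early gene among their 3 nearest. Among the 10 genes the closest pair was Klf6 and Ier2 (0.85), then Nr4a2 and Nr4a3 (0.73) and Nr4a1 and Nr4a2 (0.66), and the least alike were Klf10 and Ier3 (-0.42).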

How the data were processed

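The deposited matrices hold raw UMI counts per gene and barcode from 10x 3' V3 libraries, which the authors deposited without normalization. Per the submitters' processing notes, which give no order, Cell Ranger 3.1.0, STAR, Seurat and mm10 were used. Barcodes with at least 300 genes and at most 50% mitochondrial UMIs were kept, and doublets (9.79 to 11.1% of cells) were called from simulated pairs and removed. Cells were clustered together (leidenalg 0.10.2, resolution 1.5, 30 components, 20 neighbours) without the 10 genes or the listed genes, and named by markers. Counts were summed per class and library, and ratios were given exact conditional binomial intervals (Python 3.11.15, scipy 1.17.1) and checked on simulated counts. The 10 genes, the gene lists and the markers were chosen with earlier results of these data known. Genes to name were all 10 and, per list, class and time, up to 3 with the largest ratios in each direction. Each time point is 1 library from pooled mice, so no comparison has replicates. Free RNA was not removed. Gene positions are from GENCODE vM21 (99.86% of identifiers matched) and promoters from RefSeq. Alternatives were another cluster resolution, a 25% mitochondrial limit, doublets kept, equal weighting of cells, the median gene ratio as scale, each sex alone and no UMI minimum. A listed gene is not reported here.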

Additional observations from a re-analysis of the deposited data

How the results depend on the processing

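Of 830 recomputed ratios of the 10 genes over all alternatives, 702 stayed within their counting interval and 124 moved beyond it. Another 4, all past 2-fold in the main run, turned direction. Sign changes of ratios under 2-fold were not counted as turned. One was Ier2 at 0 and 12 h, with 21.1 and 13.6 CPM in all PT-like cells but 11.5 and 13.1 CPM in the shared clusters. A cluster resolution of 1.0 and scaling by the median gene ratio moved 0 of 109 each, and the latter shifted all genes by at most 0.05. The 4 that turned rest on 10 UMIs or fewer: Klf10 in DCT/CNT-like cells at 12 h was at 1.04 with a 25% mitochondrial limit (6 against 2 UMIs), and Klf2 in male-called DCT/CNT-like cells at 0.023, 1.08 and 1.17 at 1, 4 and 12 h (2 UMIs at 0 h). Counts of genes past 2-fold in DCT/CNT-like or PT-like cells that changed by over 1.5 times are given here, and another 12 changed by 1 gene. With 25% mitochondrial UMIs 1 gene was lower in PT-like cells at 4 h, and DCT/CNT-like cells had 0 lower at 1 h, 1 higher and 1 lower at 4 h and 2 lower at 12 h; Ier2 there had a 1 h ratio of 0.02. With doublets kept DCT/CNT-like cells had 0 lower at 1 h. Weighting cells equally gave 1 higher in PT-like cells at 12 h and 5 higher in DCT/CNT-like cells at 1 h; no UMI minimum also gave 5. Male-called DCT/CNT-like cells had 0 lower at 1 h, 1 higher and 1 lower at 4 h and 3 lower at 12 h. Female-called cells had 0 lower at 4 h and 1 lower at 12 h in PT-like cells, and 6 higher at 1 h, 1 higher and 2 lower at 4 h and 3 lower at 12 h in DCT/CNT-like cells. The neutrophil, shared cluster and Slc12a3-led cluster alternatives that follow were chosen after seeing the data. Without cells holding neutrophil markers DCT/CNT-like cells had 0 lower at 1 h, and 4 at 12 h. The shared PT-like clusters had 3 higher at 1 h, 1 higher and 0 lower at 4 h and 1 higher at 12 h. The Slc12a3-led cluster had 5 higher and 0 lower at 1 h and 1 higher and 2 lower at 4 h. Beyond fewer cells in most of these alternatives, the cause was not tested. Counts under the alternatives are given without the number of genes measured or the share of all genes past 2-fold there. They show only how the counts depend on the settings, and are not a result about the 10 genes. No paired analysis was possible because each group is 1 library and no test was made. Leaving out a replicate was likewise not possible. Depth limits Nr4a2, Nr4a3 and Klf5 in most classes and Klf4 in DCT/CNT-like cells, where fewer than 20 UMIs were counted over both libraries.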
